A study of Mus musculus with 15 samples.

Results

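Chemokine ligands and their receptors were examined in gonadal white adipose tissue of mice fed a high-fat diet. The members were all genes on the array whose single annotated symbol starts with Ccl, Cxcl, Xcl, Cx3cl, Ccr, Cxcr, Xcr or Cx3cr followed by a digit, each represented by the probe set with the highest mean over the arrays. This gave 52 genes of the 19938 named genes measured, 34 ligands (19 Ccl, 13 Cxcl, Xcl1 and Cx3cl1) and 18 receptors (10 Ccr, 6 Cxcr, Xcr1 and Cx3cr1). Another 7 probe sets carried several symbols with copies of Ccl21 or Ccl27 among them and were not named. The tissue came from male C57BL6/J mice, 7 wild type and 8 Sfrp5 knockout (Q27Stop, a premature stop codon introduced into Sfrp5). Sfrp5 encodes a secreted protein that binds Wnt ligands. Both groups had been fed the high-fat diet for 8 weeks from 4 weeks of age and were 12 weeks old. Each mouse gave 1 array, so no lean or chow-fed mouse enters any comparison.

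Chemokines are small secreted proteins that direct the migration of leukocytes by activating G protein-coupled receptors. Most belong to the CC or CXC class, named for the spacing of conserved cysteines, and many are encoded in gene clusters that arose by duplication. In obese adipose tissue they are best known for the recruitment of monocytes, in which Ccl2 acts through Ccr2.

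All values are deposited log2 signals per probe set, and a difference of 1 is a doubling of signal. Signals of different probe sets were not compared as amounts of RNA, because probe sets differ in response. In whole tissue, fewer cells of a type and less RNA per cell cannot be told apart. The genotype labels were checked on Sfrp5, which averaged 7.92 ± 0.24 (SD, n = 7) and, in the knockouts, 6.69 ± 0.40 (SD, n = 8), with no overlap and a difference of -1.23 (SE 0.16; limma adjusted p = 0.0200). The adipocyte genes Adipoq and Fabp4 stood at percentiles 99.7 and 99.9 of mean signal among named genes. Several arrays stood apart. A list of 20 macrophage genes, none of them a chemokine gene, averaged 8.48 to 9.42 per array and was highest in knockout replicate 8 (9.42) and wild-type replicate 2 (9.07). A list of 15 genes of motile cilia, chosen after the data were seen, averaged 7.47 to 8.06 in 5 arrays (wild-type replicates 4 and 7, knockout replicates 2, 4 and 7) and 6.31 to 6.80 in the other 10. The epididymis and testis list read 11.12 in knockout replicate 2 and 6.02 to 7.20 elsewhere. For some genes, slopes on the macrophage list and genotype differences are also given without these arrays. A value given without such an alternative was not always stable. Below, the macrophage-high pair is wild-type replicate 2 and knockout replicate 8.

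Chemokine genes varied more between mice of a genotype than most genes. Their median SD within genotype was 0.229 log2 units, against 0.163 over all named genes, and 15 of the 52 lay above 0.295, the 90th percentile of all named genes. Cxcl17 varied least (SD 0.089) and Ccl28 most (SD 1.186), followed by Ccl8 (0.70), Ccl2 (0.62), Cxcl2 (0.47), Ccr3 (0.44), Cxcl13 (0.44), Ccl11 (0.41) and Ccl9 (0.41). Knockout replicate 8 held the highest value of 10 chemokine genes, more than any other array, and wild-type replicates 2, 3 and 5 held the highest value of 6 each. On the low side, wild-type replicate 6 held the lowest value of 10 genes and knockout replicate 2 of 9. Low signal was common among the receptors, since 10 of 18 receptors and 6 of 34 ligands had a mean signal under 6.24, the 33rd percentile of all probe sets. Genes named below that were among them include the receptors Ccr1, Ccr1l1, Ccr3, Ccr4, Ccr9, Cxcr2, Cxcr5 and Xcr1 and the ligands Ccl3, Cxcl2 and Cxcl5. Whether such probe sets rose above background could not be assessed from the deposited values.

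A group of chemokine genes followed the macrophage list across mice. For each probe set the slope on the macrophage list mean was fitted with genotype in the model, in log2 units of the gene per log2 unit of the list. Of the 52 genes, 7 had a slope above 0 and 1 a slope below 0 at a limma adjusted p under 0.05, where 3.15% and 0.667% of all 35557 probe sets did so. The 7 were the CC ligands Ccl2, Ccl6, Ccl7, Ccl9 and Ccl11 and the receptors Ccr2 and Cxcr4, and the one below 0 was Cxcl11. Signs over all members were mixed, 31 above 0 and 21 below, with a median slope of 0.10 against 0.01 over all named genes.

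**Figure D1:**
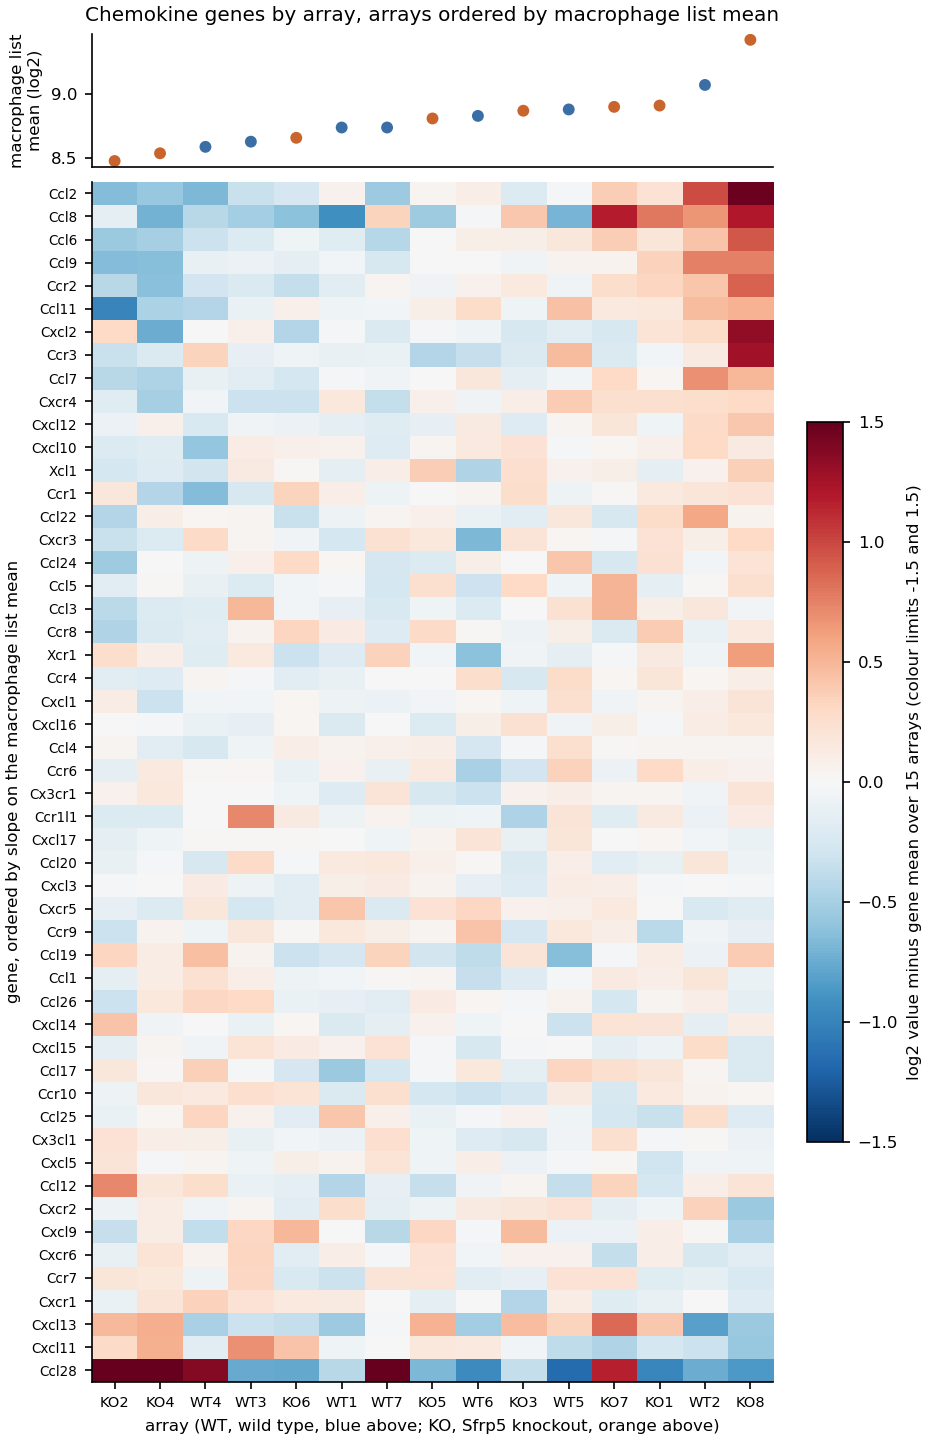
Heat map of the 52 chemokine genes (rows, ordered by their slope on the macrophage list mean) in 15 arrays (columns, ordered by that mean, which is plotted on top in log2 units with wild type in blue and Sfrp5 knockout in orange). Colour gives the log2 value minus the gene's mean over the arrays, limited to -1.5 and 1.5. The upper rows turn from blue to red toward knockout replicate 8 at 9.42, and the bottom row, Ccl28, is red in 5 arrays of both genotypes.

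Ccl2, the main attractant of monocytes, had the steepest of these slopes. It ranged from 7.99 over a median of 8.65 to 9.65 in wild-type arrays and from 8.02 over 8.59 to 10.14 in knockout arrays. The lowest values were in wild-type replicate 4 and knockout replicate 2 and the highest in wild-type replicate 2 and knockout replicate 8, with overlapping groups. Its slope was 2.41 (SE 0.24; limma adjusted p = 6.37e-05). Without wild-type replicate 2 and knockout replicate 8 it was 2.01 (limma adjusted p = 0.0458), and without the 5 arrays high in cilium genes it was 2.45 (limma adjusted p = 0.0063).

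Ccl7, another ligand of Ccr2 and the neighbour of Ccl2 on chromosome 11, ranged from 7.47 over 7.59 to 8.31 in wild-type and from 7.16 over 7.55 to 8.12 in knockout arrays. Wild-type replicate 2 held the highest value of all. The slope was 1.17 (SE 0.17; limma adjusted p = 0.0015), with 1.19 and an adjusted p of 0.0729 without wild-type replicate 2 and knockout replicate 8. Without the 5 cilium-high arrays it was 1.17 with an adjusted p of 0.0578.

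Ccl11, eotaxin, attracts eosinophils through Ccr3. It ranged from 10.38 over 10.78 to 11.29 in wild-type and from 9.83 over 10.90 to 11.34 in knockout arrays, with its low point in knockout replicate 2. The slope of 1.43 (SE 0.24; limma adjusted p = 0.0038) was 2.19 (adjusted p = 0.0237) without the pair of macrophage-high arrays and 0.86 (adjusted p = 0.140) without the 5 cilium-high arrays, so here the value depended on which arrays were kept.

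Ccl6 and Ccl9, CC ligands of the receptor Ccr1 that are expressed by myeloid cells and lie side by side on chromosome 11, followed the list closely. Ccl6 ranged from 10.27 over 10.51 to 11.12 in wild-type and from 10.14 over 10.73 to 11.63 in knockout arrays, with a slope of 1.60 (SE 0.15; limma adjusted p = 3.97e-05). Ccl9 ranged from 8.51 over 8.71 to 9.51 and from 8.11 over 8.72 to 9.51, with a slope of 1.56 (SE 0.19; limma adjusted p = 0.000303). In both genes knockout replicates 2 and 4 were the lowest arrays. Both kept an adjusted p under 0.05 when either set of arrays was left out, with slopes of 1.76 and 1.43 for Ccl6 and of 1.57 and 1.38 for Ccl9.

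Among the receptors, Ccr2, which marks inflammatory monocytes, ranged from 9.61 over 9.84 to 10.31 in wild-type and from 9.27 over 9.94 to 10.78 in knockout arrays. Its slope was 1.54 (SE 0.15; limma adjusted p = 4.17e-05), 1.71 without the macrophage-high pair (adjusted p = 0.0197) and 1.52 without the 5 cilium-high arrays (adjusted p = 0.0063). Cxcr4, the receptor of the stromal ligand Cxcl12, is expressed by many leukocytes. It ranged from 9.38 over 9.70 to 10.12 and from 9.24 over 9.82 to 10.04. Its slope of 0.87 (SE 0.23; limma adjusted p = 0.0453) lost the threshold in 18 of 22 other settings. Without the macrophage-high pair it was 1.44 (adjusted p = 0.132), and without knockout replicate 4 it was 0.75 (adjusted p = 0.133).

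The promoters of Ccl6, Ccl9, Ccr2 and Cxcr4 are shown because these genes rose with the macrophage list and had an entry in the RefSeq promoter table (GRCm38.p6). Each sequence runs 5′ to 3′ on the gene's strand from 250 bases before to 50 after the annotated start. Capitals mark motif matches on either strand, where a match on the minus strand is printed as its reverse complement.
Ccl6, chr11:83593038-83593337, minus strand: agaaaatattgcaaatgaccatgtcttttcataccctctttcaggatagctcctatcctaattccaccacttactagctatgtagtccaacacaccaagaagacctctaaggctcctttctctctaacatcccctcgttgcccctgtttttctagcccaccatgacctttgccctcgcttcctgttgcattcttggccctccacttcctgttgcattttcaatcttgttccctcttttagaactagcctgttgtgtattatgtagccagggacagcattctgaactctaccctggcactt
Ccl9, chr11:83578587-83578886, minus strand: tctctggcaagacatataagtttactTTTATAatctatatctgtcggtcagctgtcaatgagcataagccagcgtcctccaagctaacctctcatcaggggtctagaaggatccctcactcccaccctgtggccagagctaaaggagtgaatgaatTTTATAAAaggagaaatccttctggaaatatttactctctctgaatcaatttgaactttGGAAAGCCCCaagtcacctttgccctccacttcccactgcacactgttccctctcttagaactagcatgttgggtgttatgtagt
Ccr2, chr9:124101933-124102232, plus strand: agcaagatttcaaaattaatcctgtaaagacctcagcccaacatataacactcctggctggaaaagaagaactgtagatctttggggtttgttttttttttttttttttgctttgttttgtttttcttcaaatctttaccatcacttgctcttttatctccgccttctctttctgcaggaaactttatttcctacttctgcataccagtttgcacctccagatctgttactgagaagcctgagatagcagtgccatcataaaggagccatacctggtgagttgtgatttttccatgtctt
Cxcr4, chr1:128592250-128592549, minus strand: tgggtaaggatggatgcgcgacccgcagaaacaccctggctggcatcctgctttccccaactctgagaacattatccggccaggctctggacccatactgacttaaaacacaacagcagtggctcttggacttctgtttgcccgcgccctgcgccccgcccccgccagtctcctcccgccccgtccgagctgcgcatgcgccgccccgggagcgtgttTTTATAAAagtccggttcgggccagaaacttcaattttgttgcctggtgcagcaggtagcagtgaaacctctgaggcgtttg
The search covered a kappaB site, the TATA box TATAAA and the PU.1 core GAGGAA on both strands of 38 members with an entry (40 promoters). Among these sequences, Ccl9 held a kappaB match on the minus strand at bases 216 to 225 of the window, overlapped by no other match. Ccl9 also held 3 TATAAA matches, at -224, -94 and -92 from the start, of which the pair at -94 and -92, on opposite strands, overlaps. Cxcr4 held an overlapping pair of TATAAA matches at -32 and -30 from the start, the plus-strand one at bases 221 to 226 of the window. The Ccl6 and Ccr2 windows held none of the searched letters. A kappaB match occurred in 10 of the 40 member promoters and in 8.46% of all 32851 promoters, TATAAA in 12 and 13.6%, and GAGGAA in 12 and 28.3%. A match is a description of letters and not a measured binding site. The Ccl6 and Ccl9 promoters aligned over 74 columns, bases 192 to 265 of Ccl6 with bases 233 to 299 of Ccl9, with 59 identical positions (79.7%).

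Slope estimates covered a wide range among close neighbours on the chromosome. Of the 6 adjacent genes Ccl2, Ccl7, Ccl11, Ccl12, Ccl8 and Ccl1, the first 3 passed, and slopes ran from -0.22 for Ccl12 to 2.41 for Ccl2. Ccl12, a further Ccr2 ligand, ranged from 6.11 to 7.27 over the 15 arrays, and its slope of -0.22 (SE 0.33) had a limma adjusted p of 0.818. It was -1.19 without the macrophage-high pair and 0.55 without the 5 cilium-high arrays, so its direction depended on the arrays kept. Ccl8, whose mouse form binds Ccr8, had a steep but scattered slope of 2.05 (SE 0.55; limma adjusted p = 0.0518). It ranged from 6.93 over 7.44 to 8.52 in wild-type and from 7.14 over 7.99 to 9.05 in knockout arrays, where knockout replicates 7 and 8 read 9.03 and 9.05. The adjusted p of Ccl8 was 0.0460 after quantile normalization, 0.385 without the macrophage-high pair (slope 2.27) and 0.122 without the 5 cilium-high arrays (slope 2.44). In the run Ccl5, Ccl9, Ccl6, Ccl3 and Ccl4 only Ccl9 and Ccl6 passed, and Ccl3 and Ccl4, the macrophage inflammatory proteins, had slopes of 0.35 (SE 0.29) and 0.16 (SE 0.16). These were 0.91 and 0.33 without the macrophage-high pair, and -0.09 and 0.03 without the 5 cilium-high arrays. In the receptor run of chromosome 9, Xcr1, Ccr1, Ccr1l1, Ccr3 and Ccr2, only Ccr2 passed. The other genes of that run, and Ccl3, had mean signals under 6.24, so their slopes may be read near background. Differences between these slopes were not tested.

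**Figure D2:**
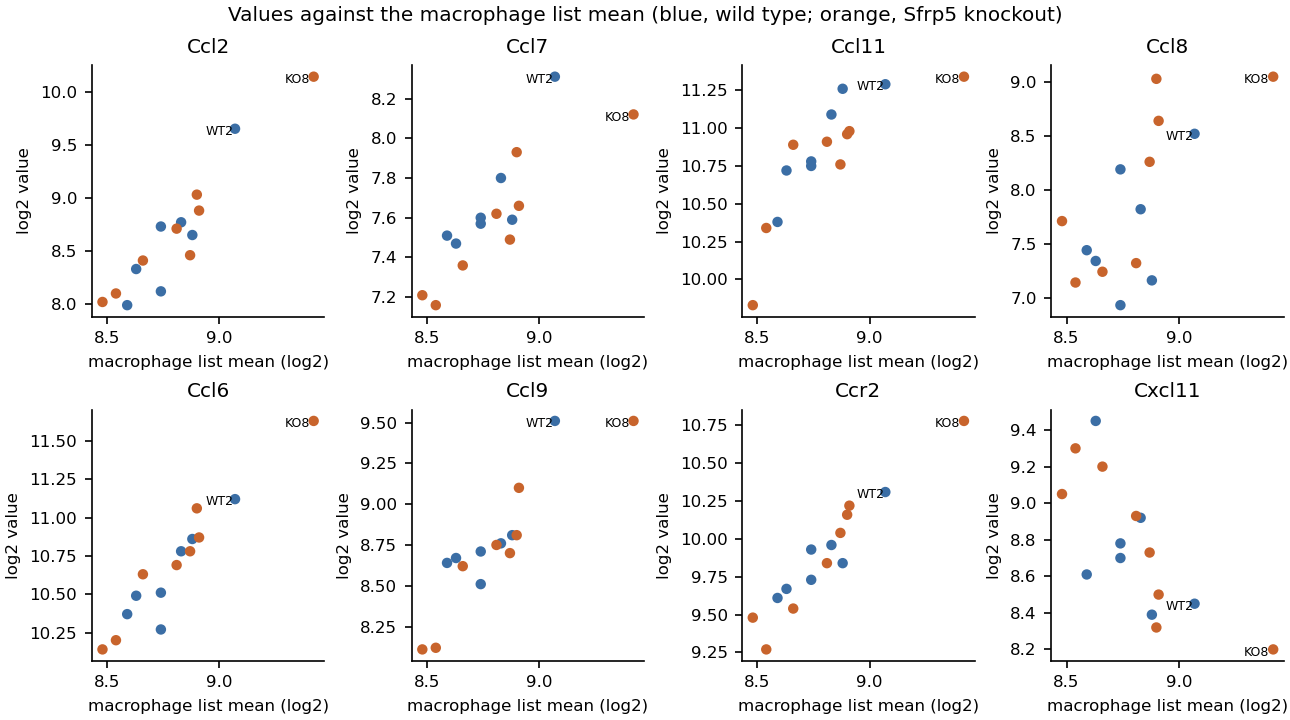
Log2 values of 8 chemokine genes (vertical axes) against the macrophage list mean per array (horizontal axes, log2), 1 point per array, wild type in blue and Sfrp5 knockout in orange. Ccl2, Ccl6, Ccl9 and Ccr2 climb from low to high list means, Cxcl11 descends, and knockout replicate 8 (9.42) and wild-type replicate 2 (9.07) are the points farthest to the right.

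The neutrophil attractant Cxcl2 and the eosinophil receptor Ccr3 had 1 array far above the others. Cxcl2 read 7.27 in knockout replicate 8 and 5.20 to 6.24 in the others, and Ccr3 read 7.38 there and 5.68 to 6.60 elsewhere. Their slopes of 1.34 (SE 0.38; limma adjusted p = 0.0663) and 1.26 (SE 0.36; adjusted p = 0.0670) were 0.11 and 0.13 once wild-type replicate 2 and knockout replicate 8 were left out. Without the 5 cilium-high arrays, which kept knockout replicate 8 in the fit, they were 1.87 and 1.80. Both slopes passed after quantile normalization (limma adjusted p = 0.0455 for Cxcl2 and 0.0347 for Ccr3). After median centring only that of Cxcl2 passed (limma adjusted p = 0.0457, and 0.0536 for Ccr3). Cxcl1, which shares the receptor Cxcr2 with Cxcl2, ranged only from 7.62 to 8.18.

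Cxcl11 was the chemokine gene that fell as the list rose. It is one of the interferon-inducible ligands of Cxcr3, together with Cxcl9 and Cxcl10, and attracts activated T cells. It ranged from 8.39 over 8.70 to 9.45 in wild-type and from 8.20 over 8.83 to 9.30 in knockout arrays, lowest in knockout replicate 8. Its slope was -1.21 (SE 0.28; limma adjusted p = 0.0265), and the adjusted p exceeded 0.05 in 7 of 22 other settings, among them median centring (0.0505), leaving out both macrophage-high arrays (0.208) and leaving out the 5 cilium-high arrays (0.0996). This mouse strain is known to carry a frameshift in the gene, so the signal describes transcript only. Cxcl9 and Cxcl10 had slopes of -0.30 (SE 0.34; limma adjusted p = 0.743) and 0.53 (SE 0.21; adjusted p = 0.208). The Cxcl9 slope changed sign to 0.47 without the macrophage-high pair and was -1.14 (adjusted p = 0.0602) without the 5 cilium-high arrays, whereas that of Cxcl10 was 0.85 and 0.16.

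The homeostatic stromal ligand Cxcl12 ranged from 8.67 to 9.30, with a slope of 0.55 (SE 0.17; limma adjusted p = 0.0880) that passed only after median centring (0.0495) and was 0.21 (adjusted p = 0.838) without the macrophage-high pair. The patrolling-monocyte receptor Cx3cr1 ranged from 7.70 to 8.21 and had a slope of 0.07 (SE 0.18), which was -0.21 without that pair. Its ligand Cx3cl1 ranged from 6.64 to 7.14 with a slope of -0.21 (SE 0.18), which was 0.06 without the 5 cilium-high arrays. Ccr7, which guides dendritic cells and T cells to lymph nodes, had a slope of -0.36 (SE 0.23), and Cxcr3 one of 0.43 (SE 0.29), none with an adjusted p under 0.05. On the negative side, the neutrophil receptor Cxcr1 (-0.38, SE 0.17), the memory T cell receptor Cxcr6 (-0.32, SE 0.20), the B cell attractant Cxcl13 (-0.71, SE 0.44) and the neutrophil attractant Cxcl5 (-0.22, SE 0.14) did not pass either. Without the macrophage-high pair Cxcl13 turned to 0.79, and Cxcr1, Cxcr6 and Cxcl5 were at -0.77, -0.19 and -0.44. Other lists moved with the macrophage list in part: the dendritic cell list was also highest in knockout replicate 8 (7.42). The endothelial list read 8.41, 8.59 and 8.44 in knockout replicates 2 and 4 and wild-type replicate 4, the arrays lowest in the macrophage list. Those arrays were also among the 5 cilium-high arrays. It read 8.87 in wild-type replicate 2, but also 8.87 in wild-type replicate 6, where the macrophage list read 8.83, and 8.78 in knockout replicate 8. The progenitor and fibroblast list read 9.81 in knockout replicate 2 and 10.27 in knockout replicate 8, with its highest value, 10.39, in knockout replicate 1. The adipocyte list ranged from 11.10 to 11.49. With the adipocyte list mean in the fit, an alternative added after the data were seen, 8 chemokine genes passed, 7 of them the same and Ccl8 in place of Cxcr4. Other parts that cell types may have in these slopes were not tested.

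Ligands were next set against receptors they are known to bind, after subtracting genotype means. Of 22 measured pairs, 14 had a correlation above 0, with a median Pearson r of 0.24, and 2 passed in a within-genotype permutation test of 100000 resamples adjusted over the 22 pairs. Both involved Ccr2. Ccl7 and Ccr2 correlated with r = 0.90 (permutation adjusted p = 0.00044) and Spearman's rho = 0.92 (permutation adjusted p = 0.00044), and r was 0.87 (permutation adjusted p = 0.0205) without the 2 arrays farthest from the ligand's median. Ccl2 and Ccr2 correlated with r = 0.88 (permutation adjusted p = 0.00055) and rho = 0.86 (permutation adjusted p = 0.0020). Without the 2 farthest arrays r was 0.73 (permutation adjusted p = 0.0643), which did not pass. All 3 genes also had slopes on the macrophage list above, and these pairs were not tested apart from it.

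The other pairs did not pass. Cxcl16, a transmembrane ligand made by myeloid cells, and its receptor Cxcr6 had the lowest correlation, r = -0.59 (permutation adjusted p = 0.200) and rho = -0.64 (permutation adjusted p = 0.0867). Without the 2 arrays farthest in Cxcl16 this was r = -0.80 (permutation adjusted p = 0.0205), and leaving out the macrophage-high pair gave -0.47. Ccl17, a ligand of the type 2 T cell receptor Ccr4, gave r = 0.53 with it (permutation adjusted p = 0.261). Cxcl2 and Cxcr2 gave r = -0.55 (permutation adjusted p = 0.295), which was 0.25 without the 2 arrays farthest in Cxcl2.

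Between genotypes no chemokine gene passed. At a limma adjusted p under 0.05, 0 of 52 were called, against 12 of 35557 probe sets (0.0337%). The lowest adjusted p of a chemokine gene was 0.190. In knockout arrays 26 chemokine genes were higher and 26 lower (all named genes, 8936 and 11002). The median difference, knockout minus wild type, was -0.00 (all named genes, -0.01), and the differences ran from -0.28 to 0.64. In simulated arrays the same fit called 13 of 50 genotype shifts of 0.3 and 29 of 50 shifts of 0.5. Differences of this size can therefore be missed, and the lack of calls does not show that they are absent. At an unadjusted limma p under 0.05 there were 8 genes, 3 higher and 5 lower, where 9.97% of all probe sets reached this. No chemokine gene had groups without overlap, against 0.217% of probe sets.

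**Figure D3:**
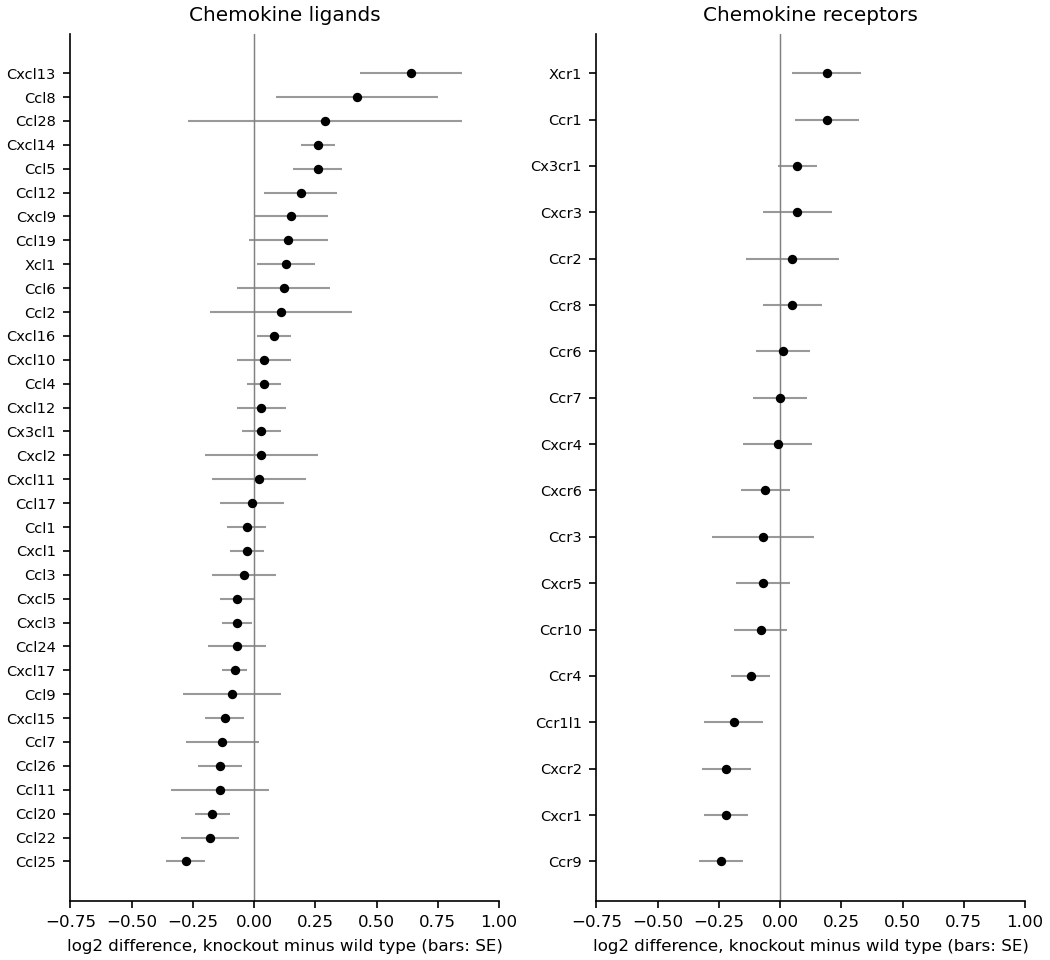
Log2 difference, knockout minus wild type, with its SE (horizontal axis) for the 34 ligands (left) and the 18 receptors (right), 7 wild-type against 8 knockout arrays. Differences run from -0.28 for Ccl25 to 0.64 for Cxcl13, and Ccl28, Ccl8 and Ccl2 have the widest error bars.

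Among ligands with a positive difference, Cxcl14 had the lowest p. Cxcl14 is a conserved homeostatic chemokine. It ranged from 6.48 over 6.67 to 6.80 in wild-type and from 6.75 over 6.89 to 7.23 in knockout arrays. All 8 knockout values lay above the wild-type mean, and the groups overlapped only between 6.75 and 6.80. The difference was 0.26 (SE 0.07; limma adjusted p = 0.190), and it stayed between 0.22 and 0.29 in every other setting run.

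Cxcl13, which guides B cells through Cxcr5, had the greatest difference, 0.64 (SE 0.21; limma adjusted p = 0.296). Wild-type values ranged from 6.67 over 7.0 to 7.82 and knockout values from 6.93 over 7.96 to 8.33. In 6 knockout arrays the value was 7.89 or higher, above every wild-type array, whereas knockout replicates 6 and 8 read 7.13 and 6.93. Its receptor Cxcr5 differed by -0.07 (SE 0.11). A list of mesothelial genes, expressed by the lining of the fat pad, lay between 7.38 and 8.63 in the wild types and between 7.95 and 8.70 in the knockouts, a difference in means of 0.37 (exact permutation p = 0.0824). The B cell list differed by 0.04 (exact permutation p = 0.532). Their part in the Cxcl13 values was not tested. Without the 5 cilium-high arrays the difference in Cxcl13 was 0.47.

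Ccl5, an attractant of T cells and monocytes, ranged from 8.28 over 8.49 to 8.61 in wild-type and from 8.44 over 8.72 to 9.10 in knockout arrays. Its difference was 0.26 (SE 0.10; limma adjusted p = 0.377), with knockout replicate 7 the highest array. The T and natural killer cell list differed by 0.04 (exact permutation p = 0.354). Ccl8 differed by 0.42 (SE 0.33) and Ccl2 by 0.11 (SE 0.29), both within the spread between mice. Without knockout replicates 7 and 8 the differences were 0.09 for Ccl8 and -0.18 for Ccl2.

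Ccl25, a ligand best known in the thymus and small intestine, and its receptor Ccr9 were both lower on average. Ccl25 ranged from 7.60 over 7.74 to 8.07 in wild-type and from 7.33 over 7.53 to 7.72 in knockout arrays, a difference of -0.28 (SE 0.08; limma adjusted p = 0.224). All 8 knockout values lay under the wild-type mean. A second Ccl25 probe set read 7.35 ± 0.09 (SD, n = 7) and 7.29 ± 0.23 (SD, n = 8), a difference of -0.06, and the mean of both probe sets differed by -0.17 (SE 0.08; limma adjusted p = 0.687). Ccr9 ranged from 6.0 over 6.22 to 6.5 and from 5.66 over 6.01 to 6.17, a difference of -0.24 (SE 0.09; limma adjusted p = 0.396). Across mice this pair had r = -0.22 (permutation adjusted p = 0.629).

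Ccl20, which attracts Ccr6-bearing lymphocytes, differed by -0.17 (SE 0.07; limma adjusted p = 0.443). Its wild-type values included the lowest of all 15 arrays, 6.26 in replicate 4. The neutrophil receptors Cxcr1 and Cxcr2, neighbours on chromosome 1, differed by -0.22 each (SE 0.09 and 0.10; limma adjusted p = 0.413 and 0.492). Cxcr2 ranged from 4.62 over 4.90 to 5.11 and from 4.21 over 4.69 to 4.93. Its difference was -0.11 once the macrophage-high pair was left out and -0.34 without the 5 cilium-high arrays. The neutrophil and mast cell list differed by -0.08 (exact permutation p = 0.0796), and its part in these values was not tested. On the other side, the inflammatory receptor Ccr1 and the dendritic cell receptor Xcr1 each differed by 0.19 (SE 0.13 and 0.14; limma adjusted p = 0.680 and 0.735). The difference in Ccr1 was 0.10 without wild-type replicate 4, and that in Xcr1 was 0.10 if wild-type replicate 6 and 0.11 if knockout replicate 8 was left out. Cxcr2, Ccr1 and Xcr1, like Ccr9, had mean signals under 6.24, so their differences may be read near background.

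**Figure D4:**
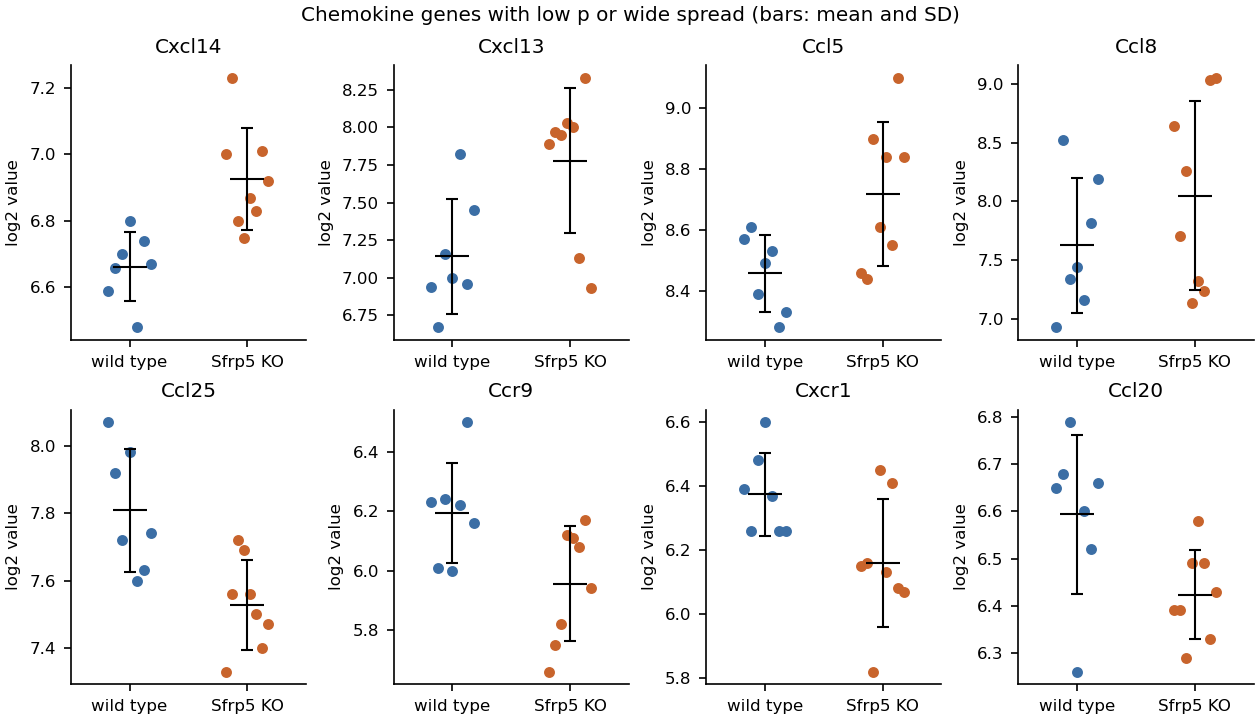
Log2 values per array (vertical axes) of 8 chemokine genes in 7 wild-type (blue) and 8 Sfrp5 knockout (orange) arrays, with mean and SD as black bars. The groups overlap in every panel. Cxcl14 overlaps only between 6.75 and 6.80, and Cxcl13 has 6 of 8 knockout arrays at 7.89 or higher.

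None of the remaining fixed genes passed between genotypes. Ccr2 differed by 0.05 (SE 0.19), Cxcr4 by -0.01 (SE 0.14), Ccr7 by 0.00 (SE 0.11), Cxcr3 by 0.07 (SE 0.14) and Cx3cr1 by 0.07 (SE 0.08). Without the 5 cilium-high arrays Ccr2 differed by 0.18 and Cxcr3 by 0.32 (limma unadjusted p = 0.0488, adjusted p = 0.836). Ccl11 differed by -0.14 (SE 0.20), Cxcl1 by -0.03 (SE 0.07), Cxcl10 by 0.04 (SE 0.11), Cxcl12 by 0.03 (SE 0.10) and Cx3cl1 by 0.03 (SE 0.08). Leaving out the 5 cilium-high arrays turned Cxcl10 to -0.01 and Cxcl12 to -0.07. The macrophage list differed by 0.04 (exact permutation p = 0.784), and with its mean in the fit 0 chemokine genes were called. Ccl19, the Ccr7 ligand of lymphoid tissue, was read by 5 probe sets, which differed by 0.14 or 0.15 between genotypes and cannot be assigned to single gene copies.

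Ccl28 stood apart from the rest of the chemokine genes. It is a mucosal chemokine made by epithelial cells that attracts Ccr10-bearing lymphocytes. Its values fell into separate ranges, 8.52 to 9.27 in wild-type replicates 4 and 7 and knockout replicates 2, 4 and 7, and 6.19 to 6.99 in the other 10 arrays. Both genotypes held high and low arrays, and the genotype difference was 0.29 (SE 0.56; limma adjusted p = 0.913), or 0.08 without the 5 arrays. Its slope on the macrophage list was -2.76 (SE 1.06; limma adjusted p = 0.189), or -0.28 without them. Ccl28 was high in exactly the arrays left out, so most of its spread was removed with them. No conclusion is drawn from the smaller values. Cilium genes were high in the same 5 arrays, and 13 of the 15 cilium genes read higher in each of them than in any other array. The cilium list was chosen after the data were seen and holds Spef2, so this count is a description and not a test. Rsph4a, a radial spoke protein of motile cilia, read 8.14 to 9.41 in the 5 arrays and 5.20 to 6.79 in the others. The adipocyte list was lower in the same arrays, 11.10 to 11.29 against 11.33 to 11.49. Of the epididymis and testis list, 1 of the 5 arrays, knockout replicate 2, was high (11.12). By Pearson correlation over the 15 arrays, a measure that these 5 arrays set, the genes most like Ccl28 were Nek11, Slc9a3, Spef2, Wdr78 and Dnaja4. Ccr10, the receptor of Ccl28, ranged from 6.51 to 7.09 and had r = 0.15 with it across mice (permutation adjusted p = 0.735). No sort or gate was applied to the tissue, and the cells behind these values were not tested.

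**Figure D5:**
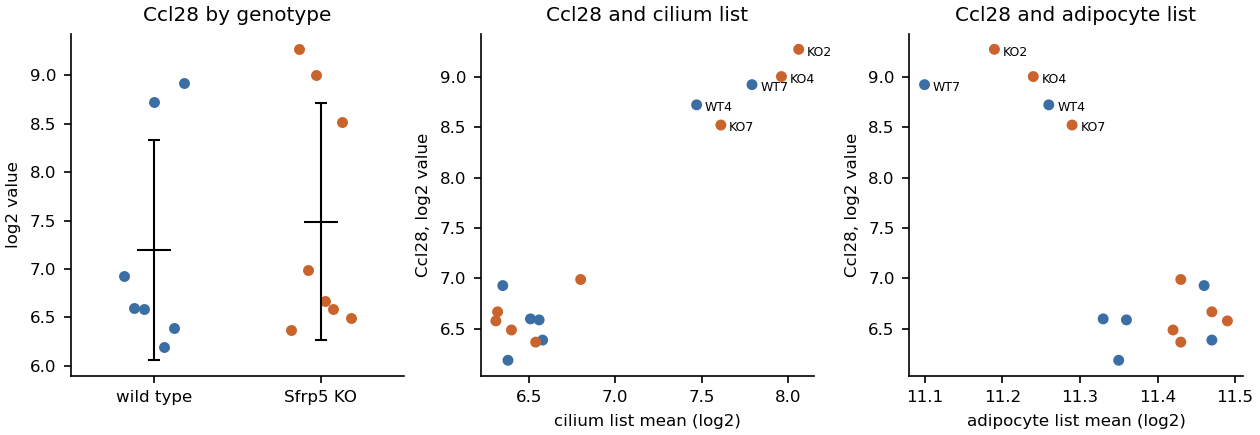
Ccl28 (vertical axes, log2 value) by genotype with mean and SD (left), against the cilium list mean (middle) and against the adipocyte list mean (right, both log2), 1 point per array, wild type in blue and Sfrp5 knockout in orange. The 5 labelled arrays lie at 8.52 to 9.27 for Ccl28, at 7.47 to 8.06 for the cilium list and at 11.10 to 11.29 for the adipocyte list.

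Genes around the ligands and receptors were read from 3 lists. Of 15 atypical receptors and other chemokine-system genes, 11 were higher and 4 lower in knockout arrays (all named genes, 8936 and 11002). Of the 15, 0 were called by limma and 1 had an unadjusted p under 0.05, where 9.97% of all probe sets did. That gene was Ppbp, the platelet chemokine, with a difference of -0.37 (SE 0.12; limma adjusted p = 0.30). Of 39 measured genes of receptor signalling, 20 were higher and 19 lower, with 0 called and 4 at an unadjusted p under 0.05, all higher, a share close to the 9.97% of all probe sets. Rap1a and Cdc42, small GTPases of integrin activation and polarity, differed by 0.19 (SE 0.06) and 0.14 (SE 0.05), and the myeloid kinase Fgr by 0.28 (SE 0.11). Of 24 inducers of chemokine genes, 12 were higher and 12 lower, with 0 called and Jun the only gene at an unadjusted p under 0.05 (0.15, SE 0.07; limma adjusted p = 0.490). The slope on the macrophage list was above 0 at an adjusted p under 0.05 for 13 of the 39 signalling genes, 6 of the 24 inducers and 1 of the 15 other genes, beside 3.15% of all probe sets. These included the guanine exchange factor Dock2, used in leukocyte migration (slope 1.70, SE 0.15; limma adjusted p = 2.46e-05), the regulator of G protein signalling Rgs1 (3.45, SE 0.54; adjusted p = 0.0021) and Cd74, a receptor for Mif (1.55, SE 0.17; adjusted p = 0.000107).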

How the data were processed

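Total RNA of each fat pad was amplified and labelled with biotin by a whole-transcript kit from nanogram amounts, per the labels' protocols. The authors deposited log2 signals for 35557 probe sets in 15 arrays, processed by RMA according to the submitters' processing notes. RMA makes array distributions alike, so a shift shared by most genes is removed before deposit. Also named in the notes, without saying for which step, are affy 1.18, limma and Affymetrix Expression Console 1.1.2800.19935. Genome build and annotation version: not given in the sources used here. Detection above background was not assessed, since no scanner file was read, and the number of arrays limits the precision.

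Names came from the platform annotation, in which 21789 carried 1 symbol, 1621 several and 12147 none, and 21698 of the 21789 identifiers matched RefSeq (GRCm38.p6). The brightest probe set represented a gene. Genotypes were compared with limma 3.58.1 (lmFit and eBayes, two-sided) in R 4.3.3 over all 35557 probe sets with Benjamini-Hochberg adjustment and a threshold of 0.05. The slope on the macrophage list mean was fitted likewise with genotype in the model. List means were compared by a two-sided exact permutation over 6435 splits, and ligand and receptor pairs by a two-sided permutation within genotype. Each mouse is 1 replicate, so p-values set a difference, slope or correlation against the spread between mice.

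The members, gene lists and tests were chosen with earlier results of these data known. Named members were the 5 of lowest p in either direction of the genotype comparison, the 8 of largest SD, the 6 of lowest p in either direction of the slope, those of the 5 pairs with the lowest p, and a fixed set of which 16 were measured. In the other lists these were the 3 with the lowest p, and further genes were named after their values were seen. Alternatives were quantile normalization, median centring, a filter on dim probe sets, other variance models, array weights, averaged probe sets per gene, the replicate number as a block, covariates and left-out arrays. The array descriptions hold a position, with wild-type before knockout arrays, whose effect cannot be told apart from genotype. They also hold a number of unstated meaning that is lower in knockout replicates 1 to 6 than in any wild-type array and within the wild-type range in knockout replicates 7 and 8, which were therefore left out together as an alternative. The fits were tested on simulated data of 35557 probe sets with known shifts added. The genotype fit called 13 of 50 shifts of 0.3, 29 of 50 of 0.5, 45 of 50 of 1.0 and 50 of 50 of 1.5. Plots used matplotlib 3.10.9 in Python 3.11.15.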

Additional observations from a re-analysis of the deposited data

Results flagged for a closer look

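Within each genotype, the highest or lowest array was set against the others by Dixon's criterion for 90 groups of 7 or 8 arrays, and 8 exceeded its 95% critical value. Chance alone marks about 1 in 20 groups that were not picked by their values. That rate does not hold here, since genes such as Ccl9 and Ccr3 were named for a large SD. Wild-type replicate 2 was the highest of its 7 arrays for Ccl7 (8.31) and Ccl9 (9.51). Knockout replicate 8 was the highest of its 8 arrays for Ccr3 (7.38) and for the macrophage list (9.42), and the lowest for Cxcr2 (4.21). Knockout replicate 4 was the lowest of 8 for Ccr1 (5.52). Wild-type replicate 4 was the lowest of 7 for the endothelial list (8.44), and knockout replicate 2 the highest of 8 for the epididymis and testis list (11.12).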

How the results depend on the processing

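In each alternative run, 0 chemokine genes and 0 genes of the other chemokine lists were called by limma between genotypes. The 5 genes of lowest p in either direction between genotypes and the 8 slopes that passed kept their direction in each alternative run that held them. Ccr1, Xcr1, Ccr9 and Cxcr2 were not in the run with dim probe sets left out. The 8 genes at an unadjusted p under 0.05 were 5 with the replicate number as a block and 4 without knockout replicates 7 and 8, and 6 to 9 when 1 array was left out. The 8 slopes on the macrophage list that passed were 5 without wild-type replicate 2 and knockout replicate 8, 4 without the 5 arrays high in cilium genes (an alternative chosen after seeing the data), and 6 to 9 when 1 array was left out. Of 2 ligand and receptor pairs, 1 passed without wild-type replicate 2 and knockout replicate 8. Leaving arrays out reduces the number of samples, and other causes were not tested.

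Replicate numbers did not pair the mice. Same-numbered arrays had correlations of deviations from -0.12 to 0.25 over 7 pairs, 3 of them over 0.1, and 0 wild-type arrays correlated best with their own number. With the replicate block, in which knockout replicate 8 has no partner, 0 chemokine slopes passed and the Sfrp5 difference was -1.28 (limma adjusted p = 0.30). When 1 array was left out, the Sfrp5 difference ranged from -1.29 to -1.13, with limma adjusted p from 0.0041 to 0.0670.

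Leaving out 1 array gave ranges of the list differences, in log2 units, of 0.01 to 0.05 for T and natural killer cells, 0.02 to 0.08 for B cells, 0.06 (without knockout replicate 2) to 0.79 for epididymis and testis, -0.05 to 0.09 for the macrophage list (negative without knockout replicate 8), -0.05 to 0.01 for dendritic cells, -0.00 to 0.06 for adipocytes, -0.13 to -0.04 for endothelium, 0.26 to 0.47 for mesothelium and -0.10 to -0.06 for neutrophils and mast cells. The exact p fell under 0.05 without wild-type replicate 4 for endothelium (0.0316), without wild-type replicate 5 or knockout replicate 5 for mesothelium (0.0270 and 0.0466), and without wild-type replicate 1 or 4 for neutrophils and mast cells (0.0373 and 0.0456). Quantile normalization turned the adipocyte difference to -0.01. The cause was not tested.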
